A study of Schizosaccharomyces pombe with 5 samples.

Results

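leu2, npr3 and atg13 are 3 coding genes of fission yeast that act in leucine synthesis, in amino acid sensing upstream of the kinase complex TORC1, and at the start of autophagy. They were chosen by the presence of peaks of RNA recovered with the RNA-binding proteins Mei2 or Msa1 over them, so their presence in the lists, their tags and their folds are a description of that choice and were not tested. The annotation holds 12606 nuclear genes, of which 5113 are coding, and the 3 genes lay under 5 of the 268 peaks in the lists, 2 of 128 for Mei2 and 3 of 140 for Msa1. RNA was recovered by UV cross-linking and immunoprecipitation followed by sequencing (CLIP-Seq), in which RNA attached to a tagged protein is pulled down on beads and sequenced. There were 2 libraries with Mei2-TAP, 2 with Msa1-TAP and 1 without a tag, and all came from homothallic h90 cells with the ura4-D18 and leu1-32 alleles, starved of nitrogen on ME medium for 4 h per the labels, with later harvests also named in the growth protocol. The mei2-TAP and msa1-TAP alleles were C-terminal fusions at the chromosomal genes, marked with KanMX, and the untagged strain carried neither. leu1-32, shared by the tagged strains and the control, is an allele of the gene for the enzyme that acts after Leu2 in leucine synthesis.

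The values come from 1 Mei2-TAP and 1 Msa1-TAP library, each set against the same untagged library, and replicate libraries were not used here. The scaled and unscaled values gave library totals of 194019 tags in Mei2-TAP and 252539 in untagged cells. The Msa1-TAP total, 359947, was chosen as the one that put low scaled signals closest to whole steps of 0.5 tags. Reads were sequenced in pairs, and tags came in steps of 0.5. Intervals in parentheses are Clopper-Pearson 95% intervals of the fold, with tags scaled to these totals, and they cover counting error only. Because such intervals are exact only for whole, independent counts, they are approximate here. Peak coordinates are those of the lists (ASM294v2) and gene coordinates those of the ASM294v3 annotation, between which no shift was seen. Of 165 genes given on both builds, 162 had at least 1 end at the same base but only 15 had both, so the place of a peak at a gene start depends on the annotation used. Every peak was deposited without its strand, so where genes on opposite strands share a peak, the lists do not tell which RNA was recovered. The libraries were strand-specific, but strand-specific coverage was not analysed here. No peak lay over mei2, msa1, ste11, rec8 or mei4 in either list.

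Leu2 is the isopropylmalate isomerase, whose product is passed to the Leu1 dehydrogenase, and leucine is one of the amino acids through which cells report their nutrient supply to TORC1. Npr3 is a subunit of GATOR1, the complex that holds back TORC1 through the Rag GTPases when amino acids are scarce. Atg13 is the regulatory subunit of the Atg1 kinase complex, which starts autophagy when TORC1 activity falls and so provides starved cells with amino acids from their own proteins. In fission yeast, loss of nitrogen lowers TORC1 activity and leads to mating and meiosis, and TORC1 is known to destabilize the Mei2 protein. Mei2 is the RNA-binding protein that starts meiosis, and Msa1, also an RNA-binding protein, was used alongside it as a control.

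The 5′ peaks reached the transcribed sequence in different parts of the 3 mRNAs, and the following stretches are shown because each lay under a peak. They are RefSeq sequence of the ASM294v3 build, read through the annotated mRNA, and capitals mark each ATG in the 30-base stretches and the start codon in the longer one. The untranslated leader of leu2 runs into the start codon at chrI:4440069-4440098, which lay inside the 5′ Mei2 peak. The npr3 stretch, chrII:4305861-4305890, is the start of the mRNA, under the downstream end of the Msa1 peak, and it holds no ATG. The atg13 stretch, chrI:4843442-4843471 on the minus strand, is where the Msa1 peak reached the coding sequence, and its first ATG lies in the leader and its second is the start codon.
leu2 leader and start codon: tttttttattttatattcatttgtaatATG
npr3 leader: acaaatctttcgtactacacgcaaattacc
atg13 leader and start codon: aattgaattaATGgaaaccacattgatATG

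The 5′ Mei2 peak over leu2 went on through 420 nt of coding sequence. The first 300 coding bases, chrI:4440096-4440395, all lay under it and were shown for that reason.
leu2 coding start: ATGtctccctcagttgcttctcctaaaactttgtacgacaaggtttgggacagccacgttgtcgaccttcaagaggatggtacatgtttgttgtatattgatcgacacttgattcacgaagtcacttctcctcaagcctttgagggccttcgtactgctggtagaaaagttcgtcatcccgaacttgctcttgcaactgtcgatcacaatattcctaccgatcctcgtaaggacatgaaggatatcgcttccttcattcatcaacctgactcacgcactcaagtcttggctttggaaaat

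leu2, alone of the 3 genes, had peaks in both lists, 2 in the Mei2 list and 1 in the Msa1 list. npr3 and atg13 had 1 Msa1 peak each and no Mei2 peak. The nearest Mei2 peak was 7.24 kb from npr3 and 23.6 kb from atg13. Tags of Mei2-TAP at these genes were not analysed here, because the list gives tags only for called peaks, so a missing peak does not show that Mei2-TAP tags were lacking. Peaks lay over 2.25% of all coding genes in the Mei2 list and over 2.54% in the Msa1 list, and over 1.56% and 1.73% of all annotated genes. Since the peaks chose the 3 genes, nothing is read from their number against these shares.

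leu2 (SPAC9E9.03) has a single exon at chrI:4439855-4442513 on the plus strand, with a leader of 241 nt. Its 5′ Mei2 peak spanned chrI:4439852-4440515, a width of 663 nt, and held 72 tags in Mei2-TAP, against 14.5 tags in the untagged library. The fold was 6.46 (3.64 to 12.3). The peak began 2 nt upstream of the annotated gene, covered the whole leader and ended in codon 140. Per kb of peak and per 10000000 tags of the library, this was 5597 tags in Mei2-TAP and 866 in untagged cells. It ranked 14th of 128 by Mei2-TAP tags, 12th by deposited p and 56th by fold. It was thus among the peaks with the most tags, while its fold lay near the list's median of 5.86. These ranks are against untagged cells only. leu2 is not among the Mei2 targets named by the study, whose CLIP-Seq targets also had to rank high in a call against Msa1-TAP.

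The inner Mei2 peak of leu2 lay wholly in the coding sequence, at chrI:4440821-4441674, with a width of 853 nt. It held 56 tags in Mei2-TAP against 14.5 in untagged cells, a fold of 5.03 (2.78 to 9.67), and ranked 21st of 128 by deposited p. It was 306 nt downstream of the 5′ peak and ran over codons 243 to 527, with its midpoint at 52.4% of the gene. Its density was 3384 tags per kb per 10000000 tags in Mei2-TAP, below the 5597 of the 5′ peak, while the untagged library had 673 and 866 at the same places. The intervals of the 2 folds overlapped, so the excess over the untagged library could not be separated between the 5′ and the inner peak at this depth.

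Taken as 1 region, the Mei2 peaks of leu2 held 128 tags in Mei2-TAP, against 29 in untagged cells, a fold of 5.75 (3.82 to 8.92). The 5′ peak held 56.2% of these Mei2-TAP tags (Clopper-Pearson interval 47.2 to 65.0), against 50% of the untagged tags (31.0 to 69.0). Together the peaks covered 56.9% of the gene. leu2 was 1 of 9 coding genes with at least 2 peaks in the Mei2 list, when each peak was given to the gene it overlapped most.

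The Msa1 peak of leu2 was narrower and lay further upstream, at chrI:4439829-4440029, with a width of 200 nt. It held 29.5 tags in Msa1-TAP and 4 in the untagged library, a fold of 5.17 (1.82 to 20.2). It began 25 nt upstream of the gene, covered 175 nt of the leader, or 72.6% of it, and stopped 66 nt short of the start codon. The density was 4098 tags per kb per 10000000 tags in Msa1-TAP and 792 in untagged cells. In the Msa1 list it ranked 45th of 140 by tags, 64th by deposited p and 78th by fold, close to the list's median fold of 5.37.

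The 5′ Mei2 peak and the Msa1 peak of leu2 shared 177 nt, which was 26.7% of the Mei2 peak and 88.5% of the Msa1 peak. No Msa1 peak was called over the coding part of the Mei2 peaks, and the inner Mei2 peak began 792 nt beyond the end of the Msa1 peak. The lists give tags only for called peaks, so this does not show that Msa1-TAP tags were lacking there. Both peaks were called against the same untagged library, so their excess over it is not independent. The lists had peaks over 16 coding genes in common, 13.9% of those under a Mei2 peak and 12.3% of those under an Msa1 peak. Of all coding genes, 2.54% lay under an Msa1 peak and 2.25% under a Mei2 peak, and the sharing was not tested. In 4 of the 16 the annotated gene start lay inside a peak of both lists, and these were leu2, aga1, bdf2 and rpl402. The aga1 peaks of both lists also lay over sme2, the gene for meiRNA, an RNA known to bind Mei2. The lists do not tell aga1 from sme2 there.

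Non-coding RNAs annotated on the opposite strand ran under the leu2 peaks. SPNCRNA.3999 lay under 502 nt of the 5′ Mei2 peak, 75.7% of its width, and under 16 nt of the Msa1 peak. SPNCRNA.4000 lay under 73 nt of the inner Mei2 peak, 8.56% of its width. In each of these peaks leu2 had the longer overlap. The tags of the 5′ Mei2 peak may therefore stem from leu2, from SPNCRNA.3999 or from both, and the lists do not tell them apart.

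**Figure D1:**
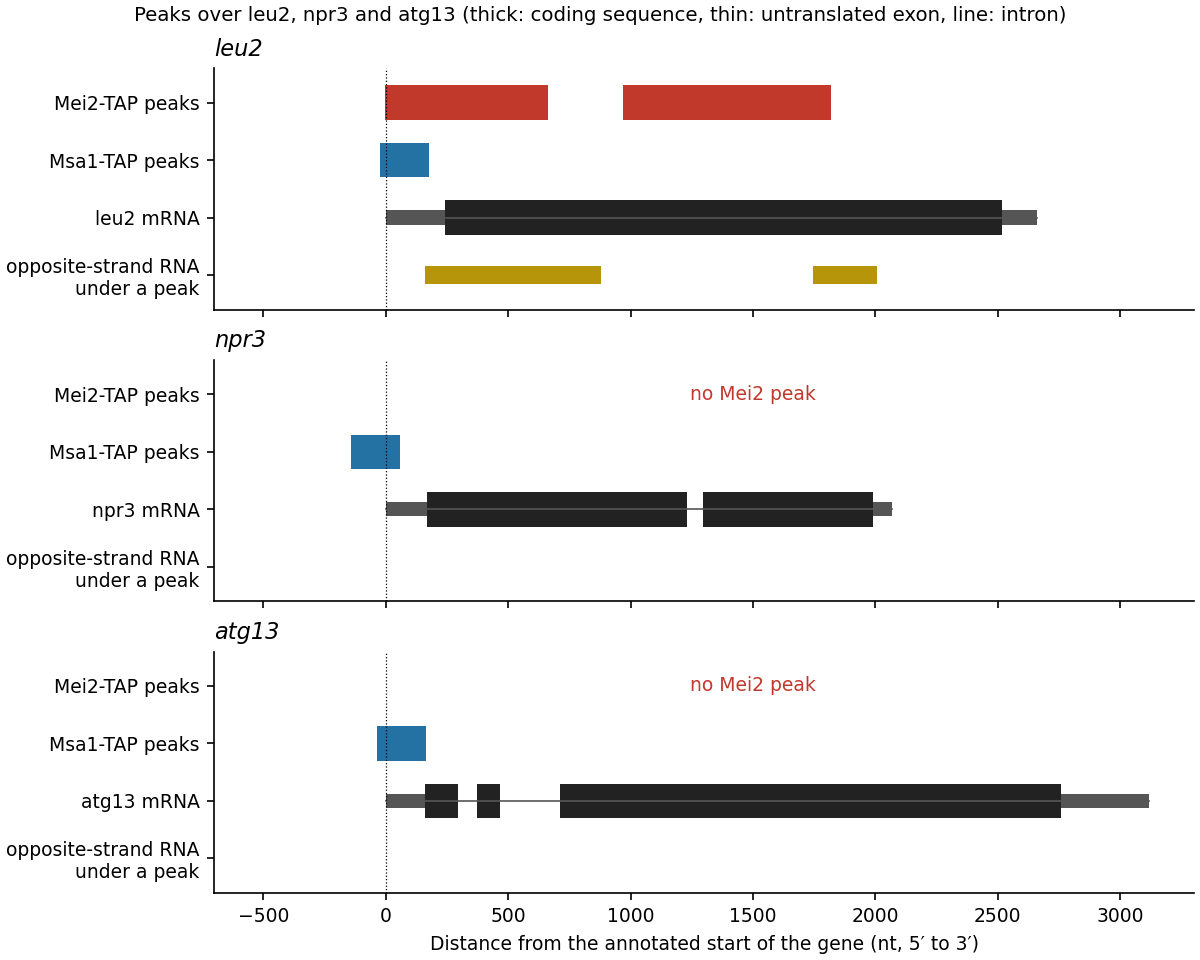
Peaks over leu2, npr3 and atg13, with distance from the annotated gene start in nt on the x axis, and rows for Mei2-TAP peaks (red), Msa1-TAP peaks (blue), the mRNA (thick where coding, thin where untranslated, a line where intron) and opposite-strand RNA under a peak (yellow). The 3 Msa1 peaks cross the gene start (dotted line), the 5′ Mei2 peak of leu2 runs from the gene start into the coding sequence, and the inner Mei2 peak lies wholly in it.

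npr3 (SPBC543.04) has 2 exons at chrII:4305861-4307927 on the plus strand, with a leader of 168 nt. Its Msa1 peak spanned chrII:4305717-4305917 and held 16 tags in Msa1-TAP and 2.5 in the untagged library, a fold of 4.49 (1.18 to 29.6). Of its 200 nt, 57 nt lay in npr3, all in the leader, and 143 nt lay upstream of the annotated gene. It stopped 111 nt short of the start codon. The density was 2222 tags per kb per 10000000 tags in Msa1-TAP and 495 in untagged cells, the lowest of the 5 peaks in the tagged and in the untagged library. By deposited p it ranked 126th of 140 in the Msa1 list.

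No other annotated gene lay under the npr3 peak. The gene upstream is pku80, which encodes a subunit of the Ku complex that binds DNA ends. It runs away from npr3 on the minus strand and ends its annotation 459 nt before npr3 begins. The midpoint of the whole peak was 44 nt upstream of npr3, so the assignment of this peak to npr3 rests on the 28.5% of it that lay inside the gene. Whether the upstream tags belong to a longer npr3 transcript was not tested.

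atg13 (SPAC4F10.07c) has 3 exons at chrI:4840485-4843603 on the minus strand, with a leader of 159 nt. Its Msa1 peak spanned chrI:4843439-4843639 and held 37.5 tags in Msa1-TAP and 5 in the untagged library, a fold of 5.26 (2.07 to 17.1). It began 36 nt upstream of the gene, covered the whole leader and reached 5 nt into the coding sequence, all within the exon at the 5′ end. The density was 5209 tags per kb per 10000000 tags in Msa1-TAP and 990 in untagged cells, the highest of the 3 Msa1 peaks in both libraries. It ranked 35th of 140 by tags, 75th by fold and 36th by deposited p.

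The atg13 peak overlapped no other annotated gene, so among the 5 peaks it was, with that of npr3, free of an annotated opposite-strand RNA. The gene upstream, mug126, runs away from it on the plus strand and begins 497 nt from atg13. Beyond their own peaks, the 3 genes had no listed peak within 1 kb in either list, and the nearest was 6.87 kb from npr3.

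**Figure D2:**
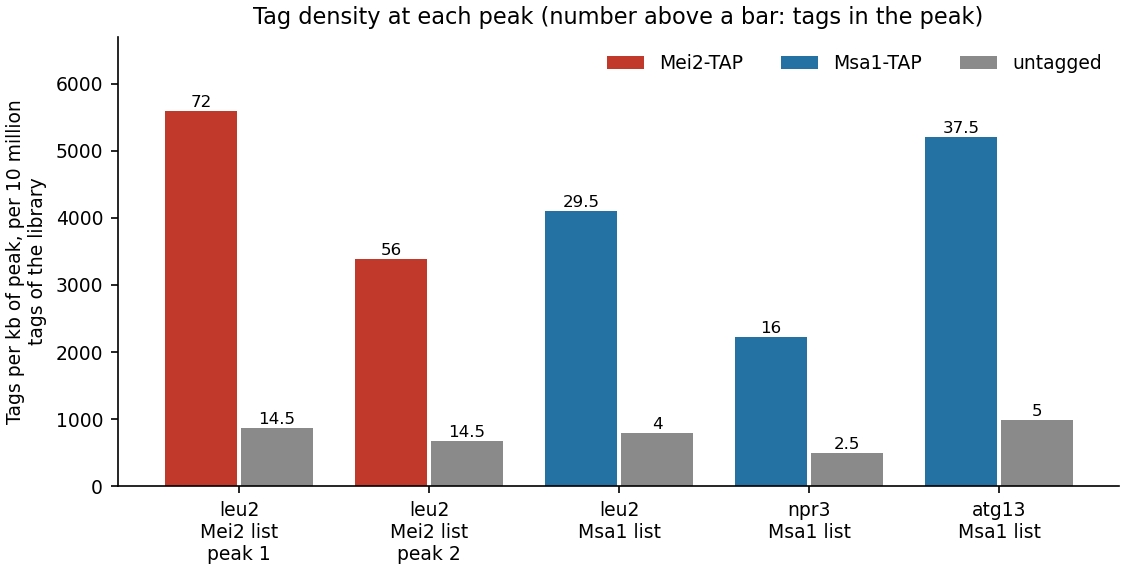
Tags per kb of peak and per 10000000 tags of the library (y axis) at the 5 peaks, with the tagged library on the left of each pair (Mei2-TAP red, Msa1-TAP blue), the untagged library on the right (grey), and the number of tags above each bar. The tagged bars run from 2222 at npr3 to 5597 at the 5′ Mei2 peak of leu2, and the untagged bars from 495 at npr3 to 990 at atg13. Each bar is 1 library.

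The 3 Msa1 peaks thus held 37.5, 29.5 and 16 tags in Msa1-TAP at atg13, leu2 and npr3, against 5, 4 and 2.5 tags in the untagged library. Tagged and untagged tags were in the same order over the 3 genes, and the folds, 5.26, 5.17 and 4.49, had intervals that overlapped widely. The interval lay wholly above 2 at atg13 and at both Mei2 peaks of leu2, and not at the Msa1 peaks of leu2 and npr3. In the whole lists this held for 47 of 128 Mei2 peaks and 45 of 140 Msa1 peaks. Only peaks with a fold of at least 4 are listed, and the intervals are not adjusted for that choice. The median peak had 13.25 tags in Mei2-TAP and 23.5 in Msa1-TAP, with 3 untagged tags in each list, so the leu2 Mei2 peaks were deeper than most and the npr3 peak shallower.

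The folds of the 5 peaks had near neighbours in the lists. In the Mei2 list the 5′ leu2 peak lay between peaks over pfl3 (6.51) and pma1 (6.32), and the inner one between SPNCRNA.4826 (5.08) and mub1 (4.99). In the Msa1 list the npr3 peak tied with peaks over ppm1, aah1 and spn6 at 4.49, between tsp0 (4.52) and spn3 (4.44). In the same list the atg13 peak tied with spo20 and cdr1 peaks at 5.26, below a pma1 peak at 5.31. The leu2 peak tied with a sif3 peak at 5.17, between those at 5.26 and another pma1 peak at 5.11. The 5 peaks were therefore not set apart from the others by their fold.

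**Figure D3:**
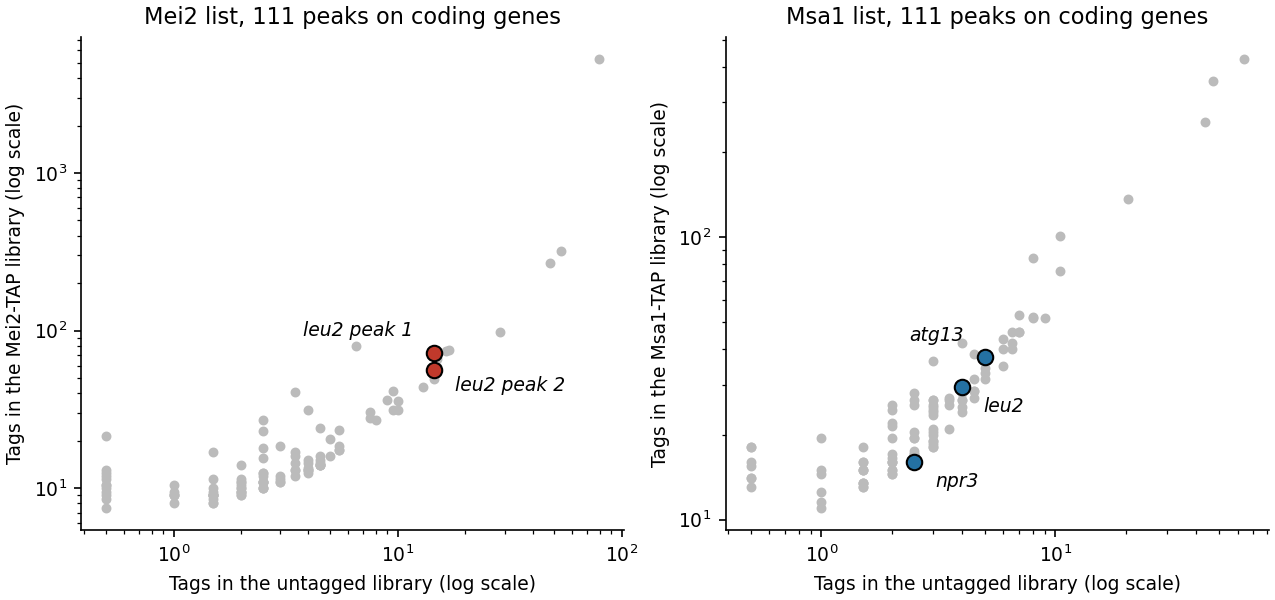
Tags in the tagged library (y axis, log scale) against tags in the untagged library (x axis, log scale) for the 111 Mei2 peaks (left) and the 111 Msa1 peaks (right) on coding genes, grey, with the peaks of leu2, npr3 and atg13 in colour. The leu2 Mei2 peaks lie at 72 and 56 Mei2-TAP tags with 14.5 untagged tags each, and the Msa1 peaks at 37.5, 29.5 and 16 Msa1-TAP tags lie within the grey points.

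All but the inner Mei2 peak of leu2 lay over the annotated start of their gene. The midpoint of the part inside the gene was at 12.4% of gene length for the 5′ Mei2 peak of leu2, and at 3.27% for leu2, 2.63% for atg13 and 1.35% for npr3 in the Msa1 list. Across the lists, the gene start lay inside a peak in 12 of 115 coding genes under a Mei2 peak (10.4%) and in 26 of 130 under an Msa1 peak (20%). Of the peaks assigned to coding genes, 8 of 111 in the Mei2 list (7.21%) and 23 of 111 in the Msa1 list (20.7%) had their midpoint in the first 10% of the gene. The 3 genes were picked partly for this place, and no test was made of it.

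**Figure D4:**
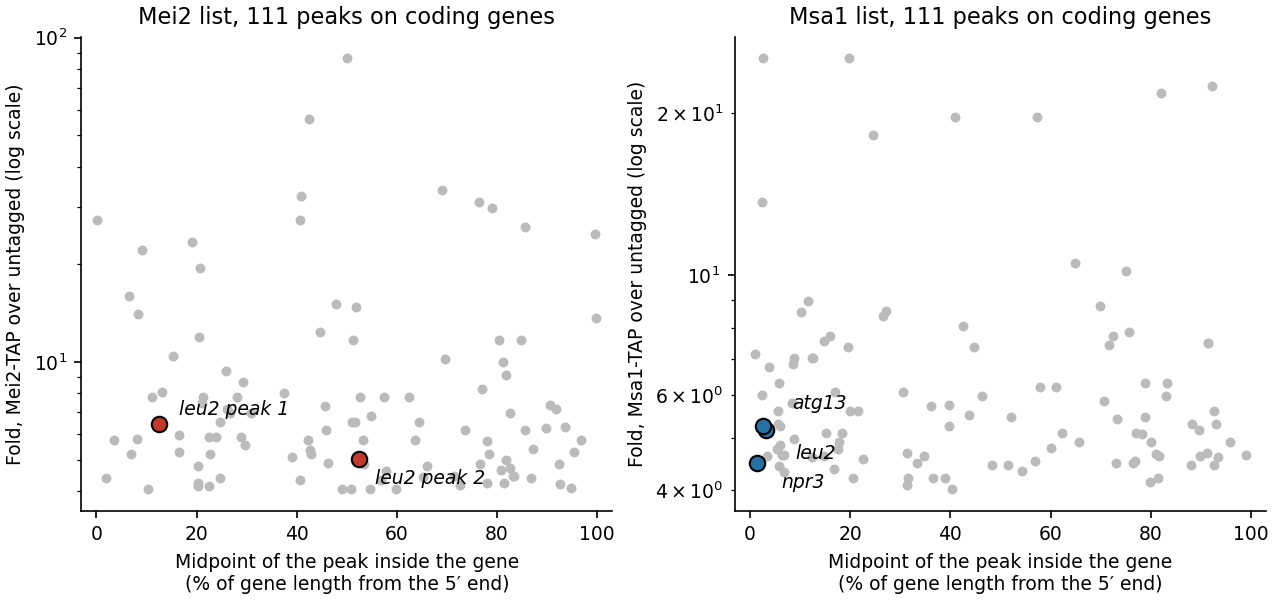
Fold of the tagged over the untagged library (y axis, log scale) against the midpoint of each peak inside its gene (x axis, % of gene length from the 5′ end) for the 111 peaks on coding genes of the Mei2 list (left) and of the Msa1 list (right), with leu2, npr3 and atg13 in colour. The 3 Msa1 peaks lie at 1.35 to 3.27% of gene length with folds of 4.49 to 5.26, and the Mei2 peaks of leu2 at 12.4% and 52.4%.

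The leaders of the 3 genes were longer than the median of 97 nt over the 4512 coding genes with an annotated leader. leu2 has no ATG in its 241-nt leader. npr3 has 2, at leader bases 60 and 116, both beyond the 57 leader bases under its Msa1 peak. atg13 has 2, at leader bases 75 and 143, both under its Msa1 peak, and the frame opened by the second is 31 codons long and overlaps the start of the coding sequence. In npr3 the frame opened at base 116 does so too, with 21 codons. Of leaders of 150 to 250 nt, 54.2% hold an ATG. These are features of the annotation and carry no measurement of translation.

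Mmi1, the YTH-family protein that removes meiotic mRNAs in growing cells and is held back by Mei2 in meiosis, recognizes hexamers that read TNAAAC, searched here with N as any base but A. Only the strand of the mRNA was searched, and such hexamers cannot overlap each other. None lay in the leaders of leu2, npr3 or atg13, and 27.0% of leaders of 150 to 250 nt hold at least 1. The whole mRNAs held 5 in leu2, 4 in npr3 and 4 in atg13. This was 1.88, 2.0 and 1.43 per kb, against a median of 1.18 per kb over all coding genes, and 22.7%, 19.6% and 38.8% of coding mRNAs had more per kb. In leu2, 1 of the 5 lay under the inner Mei2 peak, none under the 5′ Mei2 or the Msa1 peak, and 4 outside all of them.

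The rest of the pathways was read from 13 lists that hold 92 annotated genes, from leucine and branched-chain amino acid synthesis through the Rag GTPases and TORC1 to autophagy. Peaks lay over 3 of the 92 in the Mei2 list (3.26%) and over 6 in the Msa1 list (6.52%), beside 2.25% and 2.54% of all coding genes. Without leu2, npr3 and atg13, which were chosen for their peaks, the counts were 2 of 89 (2.25%) and 3 of 89 (3.37%). The lists were drawn up with these results known, so the counts were not tested.

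In leucine and branched-chain amino acid synthesis, leu2 was the only 1 of 8 genes under a peak, and leu1 had none in either list. Of the 3 GATOR1 genes, npr3 lay under an Msa1 peak and iml1 under a Mei2 peak, while npr2 lay under neither. Iml1, like Npr3, is a subunit of GATOR1. The iml1 peak, chrII:3949772-3949972, held 9 tags in Mei2-TAP, against 1 in untagged cells, a fold of 11.7 (1.62 to 513). It lay in the coding sequence at 80.3% of the gene and over SPNCRNA.6361 on the opposite strand, so npr3 and iml1 had their peaks toward opposite ends of their genes.

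Among 5 TORC1 subunits, toc1, which encodes a subunit found in fission yeast, lay under an Msa1 peak. It held 15 tags in Msa1-TAP and 1.5 in the untagged library, a fold of 7.02 (1.39 to 105), with its midpoint at 12.6% of the gene, and SPNCRNA.5638 lay on the opposite strand. Of 7 genes that act below TORC1, ppk18, which encodes a kinase of the Greatwall family, lay under an Msa1 peak at 70.7% of the gene. It held 25 tags in Msa1-TAP and 3 in the untagged library, a fold of 5.85 (1.78 to 30.3), and SPNCRNA.3777 lay on the opposite strand. No peak lay over any of 5 GATOR2 genes, 6 Rag GTPase and Ragulator genes, 3 genes of the TSC complex and Rheb or 6 genes of TORC2 and Gad8.

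gcn1, whose product activates the Gcn2 kinase when uncharged tRNA builds up, was the 1 gene under a peak among 6 genes of the Gcn2 and AMPK response. Its Mei2 peak held 30.5 tags in Mei2-TAP, against 7.5 in untagged cells, a fold of 5.29 (2.33 to 13.8). It lay in the coding sequence at 95.3% of the gene, and SPNCRNA.2992 lay on the opposite strand. Of 12 amino acid permeases and their regulators, none lay under a peak in either list. The amino acid transporter gene agp3, which is not among these 12, lay under a Mei2 peak and is given below.

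In the Atg1 complex, atg13 was the only 1 of 5 genes under a peak. Of 22 genes for the autophagy lipid kinase, membrane source and conjugation, atg38, a subunit of the lipid kinase complex, lay under an Msa1 peak with 16.5 tags in Msa1-TAP and 2.5 in the untagged library. Its fold was 4.63 (1.22 to 30.4), its midpoint was at 14.9% of the gene, and SPNCRNA.4610 lay on the opposite strand. None of 4 genes for selective autophagy lay under a peak. Of the 5 pathway genes beyond leu2, npr3 and atg13, each shared its peak with an opposite-strand RNA, and none had its gene start inside the peak. Sharing of this kind was common, since 76 of 128 Mei2 peaks and 75 of 140 Msa1 peaks lay over genes on both strands.

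**Figure D5:**
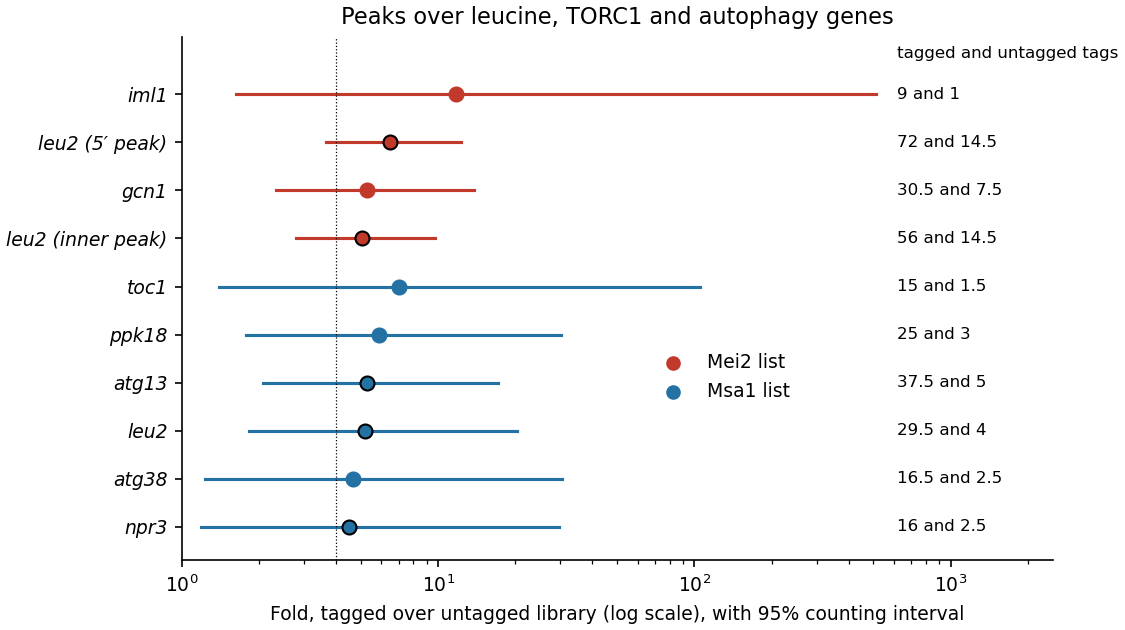
Fold of the tagged over the untagged library (x axis, log scale) with its 95% counting interval for every peak over the pathway genes, Mei2 list in red above and Msa1 list in blue below, black-edged for leu2, npr3 and atg13, with the tags of the tagged and then the untagged library at the right. The dotted line is a fold of 4, the lower limit of the lists. Points run from 4.49 at npr3 to 11.7 at iml1, and the interval of iml1 is the widest because it rests on 1 untagged tag.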

How the data were processed

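The authors aligned the reads with STAR (ASM294v2 build), sorted alignments with SAMtools and called broad peaks with HOMER. The lists used here set 1 tagged library against the 1 untagged library. The authors also called Mei2 peaks against Msa1-TAP, and took as Mei2 CLIP-Seq targets only peaks ranked high by p in both calls. The call against Msa1-TAP was not used here, and leu2, npr3 and atg13 are not among the targets they named. Tool versions were not given in the sources used here. The signal of a peak, per the file headers, is scaled to 10000000 tags. The deposited estimated counts of tags, in steps of 0.5, are unscaled for Mei2-TAP in the Mei2 list and for untagged cells in the Msa1 list, and the other library of each list is on its partner's scale. The deposited fold is a ratio, scaled tags of the tagged over the untagged library, and was at least 4 throughout. HOMER's p-value was deposited without adjustment and was used only for ranks and a stricter threshold. The deposited peak score was not used. The series also held identical copies of both lists, not used here.

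Library totals and raw tags were recovered from the scaled values. All 128 Mei2 and 140 Msa1 peaks came within 0.2 of a whole multiple of 0.5-tag steps. For the Msa1 peaks this was partly fixed in advance, since the Msa1-TAP total was chosen by the same fit to steps. The recovery was also tested on simulated data. Intervals are 95% Clopper-Pearson intervals, approximate because tags came in steps of 0.5. Libraries were amplified for 12 PCR cycles with no molecular identifiers described, so intervals cover counting error only. Genes came from the ASM294v3 annotation, which was compared with gene ends on ASM294v2 in the study's supplement, and no peak lay past a chromosome end. A peak holds the bases after its start up to its end, and was counted over a gene when they shared 1 nt on either strand. Pathway genes were matched by symbol or synonym, 92 of 93. The genes, lists and settings were chosen with earlier results of these data known. Named are leu2, npr3, atg13, genes sharing their peaks, pathway genes under a peak, and the peaks next in fold. Other genes named were chosen after their values were seen. No test was made, since each list rests on 1 tagged library. Other overlap rules, thresholds, scalings and gene ends were tried. The analysis used Python 3.11.15, pandas 2.3.3, NumPy 2.4.6, SciPy 1.17.1 and Matplotlib 3.10.9.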

Additional observations from a re-analysis of the deposited data

How the results depend on the processing

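Of 53 recomputed values, 45 stayed within 1.5 times the reported count, within the interval of the fold, or within a distance of 50% of the peak's width. Part of this was fixed in advance. Stricter rules could not change the 0 Mei2 peaks over npr3 and atg13. Placing a peak by its 5′ edge moves it by 50% of its width inside a gene, and by more over a gene start. The npr3 peak depended most on the settings. With a fold of at least 5 or a deposited p of at most 1e-10, 0 peaks lay over npr3 in the Msa1 list, and 0 also remained when 50% or more of the peak had to lie inside the gene, an alternative chosen after seeing the data. With the same limit on p, 0 peaks lay over leu2 in the Msa1 list, while the 2 Mei2 peaks of leu2 and the Msa1 peak of atg13 remained. Placed by its 5′ edge in place of its midpoint, each peak over a gene start moved ahead of the gene, to -0.11% of gene length for the Mei2 peak of leu2 and to -0.98%, -6.97% and -1.15% for the Msa1 peaks of leu2, npr3 and atg13. Adding 1 tag on both sides gave folds of 3.41 to 6.13, the lowest at npr3, which was then under the lists' limit of 4. Leaving the tags of listed peaks out of the library totals gave 4.60 to 6.81. The place within the coding sequence could not be given for the Msa1 peaks of leu2 and npr3, which did not reach it. With a fold of at least 5, 4 in place of 6 pathway genes lay under an Msa1 peak, without npr3 and atg38. No paired analysis was possible because each list holds 1 tagged library and no test was made, and for the same reason no replicate could be left out. The depth limits the npr3 peak most, with 16 tags in Msa1-TAP and 2.5 in untagged cells.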

Other observations

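Other genes for the supply of amino acids, chosen after their values were seen, also lay under Mei2 peaks. lys1, for lysine synthesis, lay under a Mei2 peak that held 11 tags in Mei2-TAP and 2.5 in untagged cells, a fold of 5.73 (1.39 to 39.2), with its midpoint at 2.17% of the gene. prm1, on the opposite strand, had the longer overlap with that peak, 200 nt against 190 nt for lys1. his7, for histidine synthesis, lay under a Mei2 peak with 13 tags in Mei2-TAP and 4 in untagged cells, a fold of 4.23 (1.31 to 17.8), at 81.4% of the gene and with no other gene under it. agp3, for an amino acid transporter that is in none of the pathway lists, lay under a Mei2 peak with 10.5 tags in Mei2-TAP and 0.5 in untagged cells, a fold of 27.3 (2.39 to 29828), which it shared with SPCC965.10 on the opposite strand. These 3 peaks held fewer tags than either Mei2 peak of leu2, and their intervals reached below 2 for lys1 and his7.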
